A study of Mus musculus with 12 samples.

Results

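The genes described here are 36 epithelial genes of cell adhesion, tight junctions, desmosomes and simple keratins, together with transcription factors, surface proteases, protease inhibitors and trafficking proteins that accompany them in epithelial cells. They were taken from a list of symbols chosen with earlier results of these data known, and all 36 were found among the 20432 genes measured. RNA was sequenced from 6 cell lines of mouse pancreatic ductal adenocarcinoma, which are 52205, 52419, 52424, 53105, 53369 and 53371, each as a pair of 1 Cre and 1 parental library. The 6 Cre cultures are labelled JAK1 knockout. They were made from the parental lines by infection with pBabe-Cre-puro retrovirus and selection in puromycin at 2, 4 and 7 µg/ml, so that Cre would delete Jak1, the gene of a tyrosine kinase that couples cytokine receptors to STAT transcription factors. The 6 parental cultures are labelled wild type, and all cultures were grown in the same serum-containing medium. The labels do not say whether a Cre culture is a clone or a pool, and vector-only cultures were not analysed here. Effects of infection and selection therefore cannot be told apart from those of the deletion.

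Epithelial cells hold on to each other through adherens junctions, in which E-cadherin (Cdh1) binds its like on the next cell, through tight junctions, which claudins and occludin seal, and through desmosomes, which tie keratin filaments of neighbouring cells together. Pancreatic duct cells and the carcinomas that resemble them carry the simple keratins 7, 8, 18 and 19. In the epithelial-mesenchymal transition, transcriptional repressors of the SNAI and ZEB families bind E-box sequences in promoters of such genes and lower their transcription, and carcinoma cell lines are known to range from epithelial to mesenchymal states.

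The libraries held 11477867 to 18044142 reads in genes, and levels are given as read counts normalised to library size (CPM). Jak1, the targeted gene, was at 168 ± 44.2 CPM in Cre and 170 ± 26.7 CPM in parental libraries (SD, n = 6 each). Its log2 change was -0.04 (SE 0.09, limma adjusted p = 0.838), and the gene total cannot show the loss of single exons. Of 9 ductal markers, 2 of them members (Krt7 and Krt19), Sox9 was at 17.9 to 183 CPM in Cre and 55.9 to 242 CPM in parental libraries. Their sum, to which the secreted protein gene Spp1 gave 3861 to 9916 CPM in Cre and 5432 to 20514 CPM in parental libraries, was 4034 to 14049 CPM in Cre and 8600 to 23827 CPM in parental libraries, although Pdx1, a transcription factor of the pancreatic lineage, was at 0.154 CPM in Cre 52419 and had no read in parental 52419. Leukocyte markers summed to 2.02 to 10.1 CPM in Cre and 1.93 to 26.5 CPM in parental libraries, mostly the macrophage-associated Cd68, 4 acinar markers to 2.45 to 20.3 CPM in Cre and 1.72 to 13.5 CPM in parental libraries, 6 endothelial markers to at most 7.01 CPM and 3 endocrine markers to at most 0.0788 CPM. In bulk RNA, fewer cells of a type and less RNA per cell cannot be told apart.

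These genes spanned a wider range between lines than between the Cre and parental cells of any line. Of the 36 genes, 34 passed the filter on low values (1 CPM in at least 6 libraries), and Rab25 and Ap1m2 reached it in 5 libraries each. All 34 tested genes differed between the 6 lines by limma's F test (adjusted p under 0.05, Benjamini-Hochberg over 12734 genes), where 71.1% of all genes tested did. On reads recovered from the deposited values, edgeR and DESeq2 also called all 34, against 69.7% and 74.4% of genes tested. The mean level of a line, taken on the log2(CPM + 0.5) scale, spanned a median of 6.10 log2 units between the highest and the lowest line, or 68.8-fold, against 0.99 log2 units over all genes tested. The span was 16-fold or more for 25 of the 34, where 6.53% of genes tested reached it. Since the genes were chosen with earlier results of these data known, these shares describe the list and are no test of it. For 36 of 36 genes the span exceeded the largest change after Cre in any line, which also held for 86.0% of all genes tested.

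**Figure D1:**
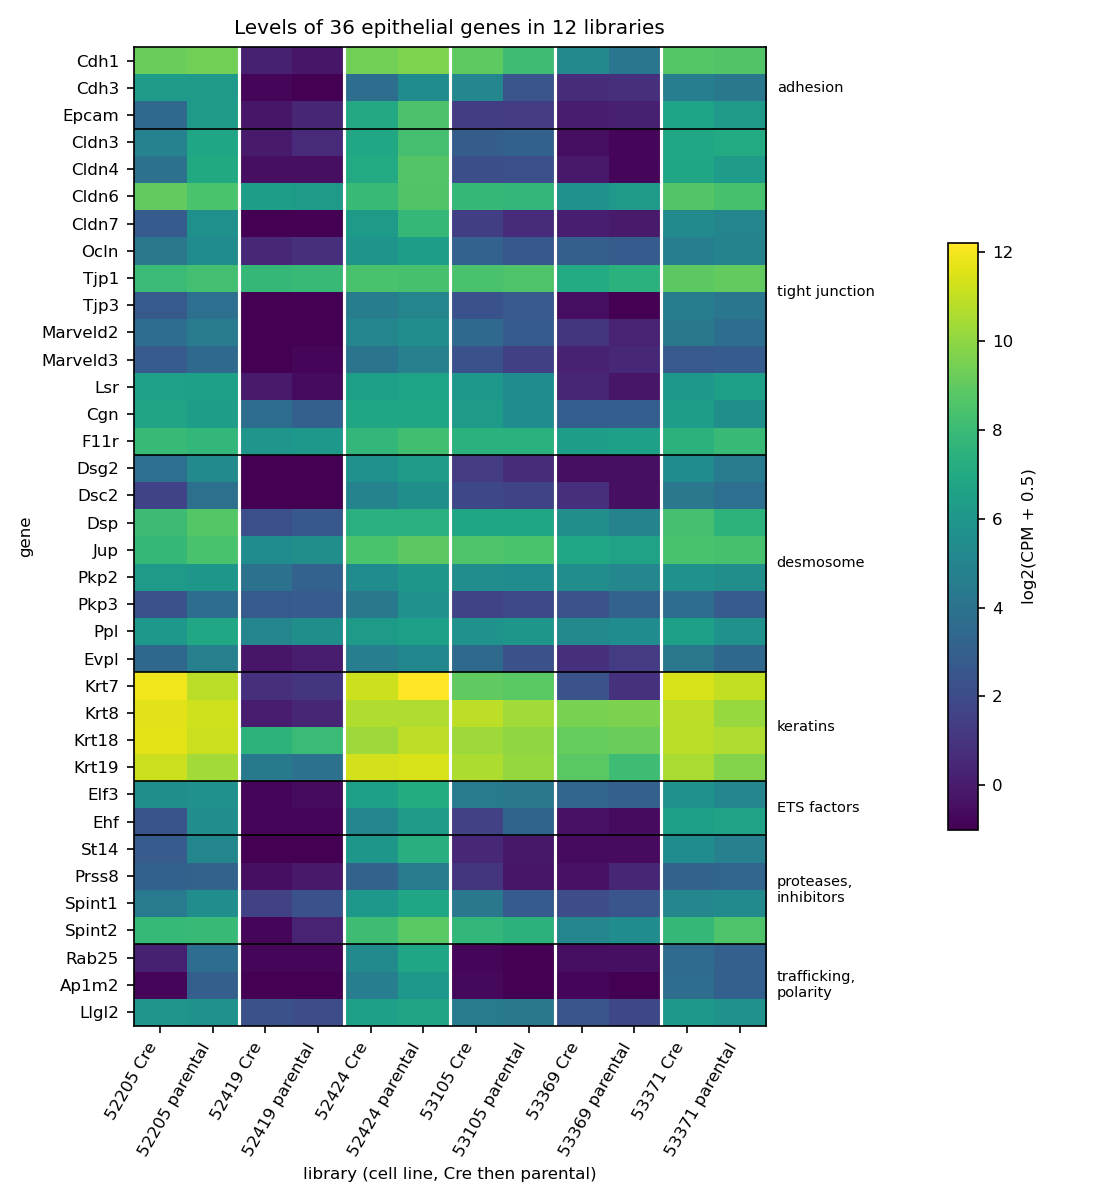
Levels of the 36 genes as log2(CPM + 0.5), 1 row per gene grouped by role and 1 column per library, with the Cre library left of the parental library of each line. Both columns of 52419 are dark for most genes, and Tjp1, Krt18, Cldn6, F11r, Jup and Ppl are the brightest in them.

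The order of the lines was much the same for most genes. Line 52424 had the highest mean level for 25 of the 34 tested genes (16.6% of all genes tested), 52205 for 7 and 53371 for 2. Line 52419 had the lowest for 27 (25.6% of all genes tested), 53369 for 6 and 53105 for 1. In 32 of the 34 genes, all but Ocln and Pkp3, the lowest levels were those of 52419 and 53369, a pair of lines named after the values were seen, and this held for 20.1% of all genes tested. Of the 36 genes, 14 were at 1 CPM or more in Cre 52419 and 16 in parental 52419, against 36 and 36 in the libraries of 52424 and of 53371. Lines 53369 and 52419 had the highest summed levels of fibroblast markers, of 1284 CPM in Cre and 2193 CPM in parental 53369 and of 154 CPM in Cre and 193 CPM in parental 52419. In the other lines that sum was 7.86 to 56.7 CPM in Cre and 9.92 to 76.3 CPM in parental libraries. Pdgfra, Pdgfrb and Col1a1 were each higher in both libraries of 53369 and 52419 than in the other lines. Col1a2, at 1.92 CPM in Cre and 0.818 CPM in parental 52419, was higher in 53105 (5.22 and 1.99 CPM). Parental Col3a1 was at 33.9 CPM in 52419 and 34.2 CPM in 53105. The part of these markers in the differences between lines was not tested.

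Among the adhesion molecules, Cdh1 (E-cadherin, chromosome 8, 106603350 to 106670247, GRCm38) was high in 4 lines, lower in 53369 and lowest in 52419. In Cre libraries it was at 591 CPM in 52205, 675 in 52424, 493 in 53105 and 425 in 53371, but at 36.4 in 53369 and 0.615 in 52419. In parental libraries it was at 682, 805, 272 and 396 CPM in 52205, 52424, 53105 and 53371, and at 17.5 in 53369 and 0.372 in 52419. Between these 2 lines 53369 was the higher in both groups, with 510 reads in Cre and 229 in parental cells, against 8 and 5 in 52419. On the log2(CPM + 0.5) scale the line means of Cdh1 were -0.02 in 52419, 4.69 in 53369 and 8.52 to 9.53 in the other lines. Cdh3 (P-cadherin), its neighbour on chromosome 8, ranged from 0.0768 to 76.6 CPM in Cre and from no read to 69.8 CPM in parental libraries.

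Epcam, the surface glycoprotein EpCAM that binds claudin-7 in epithelial membranes, differed from Cdh1 most in 53105. It was at 127 CPM in Cre 52424, 100.2 in Cre 53371 and 11.1 in Cre 52205, and at 366, 69.2 and 79.3 CPM in the parental libraries of those lines. In 53105, where Cdh1 was at 493 CPM in Cre and 272 CPM in parental cells, Epcam was at 2.14 CPM in Cre and 1.99 CPM in parental cells. It was at most 0.818 CPM in both libraries of 52419 and 53369.

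Tight junction genes fell into sets with a wide and a narrow span. Among the claudins, which form the paracellular seal, Cldn4 had the widest span of the tight junction genes (8.35 log2 units). It was at 136 CPM in Cre 52424 and 108 in Cre 53371, at 14.6 in Cre 52205, 4.03 in Cre 53105, and at most 0.429 in Cre 52419 and Cre 53369. Parental levels of Cldn4 were 408 CPM in 52424, 75.7 in 53371, 128 in 52205, 4.09 in 53105 and at most 0.223 in 52419 and 53369. Cldn3 and Cldn7 were also highest in 52424, at 120 and 71.6 CPM in Cre and 314 and 226 CPM in parental cells. Cldn6, a claudin best known from embryonic epithelia, was present in every library, at 50.0 to 515 CPM in Cre and 67.2 to 400.4 CPM in parental cells. The scaffold Tjp1 (ZO-1), which many cell types use, spanned 1.69 log2 units, and the adhesion molecule F11r (JAM-A) 2.01, while Tjp3 (ZO-3) spanned 5.79 and had no read in either library of 52419. Marveld2 (tricellulin) and Lsr (angulin-1), proteins of the contacts between 3 cells, spanned 6.28 and 6.92 log2 units, Ocln (occludin) 5.42 and Marveld3 5.32. Cgn (cingulin), which links tight junctions to actomyosin, spanned 3.84.

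Desmosome genes showed the same division. Dsg2 and Dsc2, the desmosomal cadherins of simple epithelia, had no read in 52419, at most 1.21 CPM in 53369 and at most 3.20 CPM in 53105. In the other lines they were at 2.60 to 51.5 CPM in Cre and 13.9 to 77.6 CPM in parental cells. Of the plaque proteins, which couple these cadherins to keratin, some had narrower spans. Jup (plakoglobin), which is also part of adherens junctions, was at 43.2 to 375 CPM in Cre and 46.1 to 476 CPM in parental cells, and Pkp2 at 14.5 to 73.9 CPM in Cre and 8.40 to 64.1 CPM in parental cells. Dsp (desmoplakin), which anchors keratin, spanned 5.97 log2 units and Evpl (envoplakin) 4.99, while Ppl (periplakin) had the narrowest span of the 36 genes (1.19). Pkp3 spanned 3.20 log2 units, with a median of 5.43 CPM in Cre and 7.36 CPM in parental libraries.

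The 4 keratins had the highest mean levels of the 36 genes per kilobase of exon, in Cre and in parental libraries, and 1 pair of partners was unequal in 1 line. Keratins 8 and 18 form heteropolymer filaments, and in 10 libraries the ratio of Krt18 to Krt8, in CPM per kilobase of exon, lay between 0.876 and 1.90. In 52419 the ratio was 477 in Cre and 422 in parental cells. There Krt8 (chromosome 15, 101996711 to 102004342) had 7 reads in Cre and 11 in parental cells, while Krt18, its neighbour on the chromosome, had 2452 reads in Cre and 3406 in parental cells. A processed Krt8 pseudogene is annotated on another chromosome, so a part of the Krt8 reads could have been split off in counting, in any line. Whether this happened was not tested. Krt7 spanned 10.8 log2 units, from 1.23 to 3845 CPM over the Cre and from 1.38 to 4733 CPM over the parental libraries, and was at 4.79 CPM in Cre and 1.38 CPM in parental 53369, a line in which Krt8, Krt18 and Krt19 were at 278 CPM or more. All 4 keratins had reads in every library, at least 7 of Krt8, 16 of Krt7, 209 of Krt19 and 2452 of Krt18. Krt19 ranged from 19.9 CPM in Cre 52419 to 2511 CPM in Cre 52424 and from 15.5 to 2768 CPM in the parental libraries of the same lines.

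Elf3 and Ehf are ETS transcription factors of epithelia. Elf3 spanned 7.52 log2 units and Ehf 7.33, both lowest in 52419, where each was at most 0.149 CPM. The membrane serine protease matriptase (St14) and its inhibitors also spanned wide ranges. St14 was at 62.3 CPM in Cre 52424 and 42.5 in Cre 53371 and at 160 and 26.5 CPM in the parental libraries of those lines, but under 1 CPM in both libraries of 52419, 53105 and 53369. Spint2, a Kunitz inhibitor of such proteases, was at 211 CPM in Cre and 180 CPM in parental 53105, where St14 was at 0.890 and 0.398 CPM, and it fell short of 1 CPM only in 52419. Prss8 (prostasin), which acts with matriptase, and Spint1 spanned 4.07 and 4.46 log2 units. Rab25, a small GTPase of apical recycling, Ap1m2, the epithelial subunit of the AP-1 clathrin adaptor, and Llgl2, a basolateral polarity protein, spanned 6.97, 6.35 and 4.39 log2 units.

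Line 53105 held some of these genes at high levels and others at low ones. Side by side with the 52205 Cre library, 53105 Cre had 493 against 591 CPM of Cdh1 and 1903 against 3120 CPM of Krt8. It had 2.14 against 11.1 CPM of Epcam and 0.0593 against 0.627 CPM of Rab25 (1 against 7 reads). Between the parental libraries of 53105 and 52205, Cdh1 was at 272 against 682 CPM and Krt8 at 1346 against 2401 CPM. Epcam was at 1.99 against 79.3 CPM there, and Rab25 had no read against 13.0 CPM. Lsr, Cgn, Jup and Tjp1 were at 64.8, 73.1, 375 and 345 CPM in Cre 53105 and at 42.7, 42.1, 356 and 382 CPM in parental 53105. Cldn7, St14, Prss8, Rab25 and Ap1m2 were at most 2.25 CPM in either library of that line.

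Cre cells were set against their parental cells to ask whether the genes change when JAK1 is lost. None of the 34 tested genes passed limma with Benjamini-Hochberg adjustment over all genes, where 3 of 12734 genes (0.0236%) did. At an unadjusted p under 0.05 limma had 4 of the 34 lower (8.18% of genes tested) and 2 higher (6.96%), or 6 in all, where 15.1% of genes tested had such a p. By edgeR 0 of the 34 were called, where 0.0393% of genes tested were, and 5 had an unadjusted p under 0.05, where 8.36% of genes tested were lower and 6.09% higher with such a p. By DESeq2 1 of the 34 was called, Krt19 as higher, where 2.12% of genes tested were called, 0.487% as higher and 1.63% as lower. At an unadjusted p DESeq2 had 7 of the 34, where 7.77% of genes tested were lower and 6.13% higher. The estimate was below 0 for 22 of the 34 and above 0 for 12, where 50.1% of all genes tested were below 0. Their median log2 change was -0.14, against 0.00 over all genes tested, and it was -0.02 without 52205, -0.04 without 52424, -0.09 with a pseudocount of 0.1 and -0.08 with library weights. By role, 9 of 12 tight junction genes, 6 of 8 desmosome genes and 4 of 4 proteases and inhibitors had estimates below 0, against 1 of 4 keratins and 1 of 3 adhesion molecules, with medians of -0.17, -0.10, -0.34, 0.26 and 0.27. No member was lower in 6 of 6 pairs and none was higher in 6 of 6, where 4.56% and 4.11% of genes tested were. The summed fibroblast markers were lower in Cre in all 6 lines. The sums were 1284 CPM in Cre and 2193 CPM in parental 53369, and 7.86 and 9.92 CPM in 53371. Single markers did not all follow the sum. Of the 4 tested, Pdgfra was lower in Cre in 6 pairs and Col3a1 in 5, but Col1a1 was higher in 4. Pdgfrb was higher in 3 pairs and lower in 3. The part of fibroblast markers in the values above was not tested.

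The genes nearest to the threshold came from the keratins, the tight junction and the protease inhibitors. Krt19 had a lowest, median and highest level of 19.9, 1501 and 2511 CPM in Cre and of 15.5, 974.6 and 2768 CPM in parental libraries. It averaged 1375 ± 979 CPM in Cre and 1060.2 ± 974 CPM in parental libraries (SD, n = 6 each), a log2 change of 0.49 (SE 0.12, limma adjusted p = 0.195, DESeq2 adjusted p = 0.0236). It was higher in 5 of 6 pairs, all but 52424 (-0.14). Cgn had 7.21, 76.8 and 111 CPM as lowest, median and highest level in Cre and 7.27, 44.4 and 110.2 CPM in parental libraries. It averaged 65.0 ± 44.8 CPM in Cre and 49.0 ± 40.5 CPM in parental libraries, a log2 change of 0.44 (SE 0.13, limma adjusted p = 0.240), and was higher in 5 of 6 pairs, with 53369 at -0.01. Spint2 had 0.0768, 218 and 279 CPM as lowest, median and highest level in Cre and 0.743, 213 and 460.2 CPM in parental libraries. It averaged 164 ± 117 CPM in Cre and 217 ± 181 CPM in parental libraries, a log2 change of -0.47 (SE 0.16, limma adjusted p = 0.258), and was lower in 5 of 6 pairs, all but 53105. The groups overlapped for all 3, and the sign of the change was shared by 5 of 6 lines in each. For Cgn these include 52424 at 0.005, with a Cre to parental ratio of 1.00 (interval for counting error only, 0.931 to 1.08). For Spint2 they include 52205 at -0.07, with a ratio of 0.954 (0.906 to 1.0045). Both intervals include 1, so these pairs show no direction. The change of Spint2 in 52419 (-1.11) rests on 1 read in Cre and 10 in parental cells.

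Cdh1 itself was at 370 ± 285 CPM in Cre and 362 ± 334 CPM in parental libraries, with a log2 change of 0.31 (SE 0.17, 95% confidence interval -0.07 to 0.70, limma adjusted p = 0.406). It was higher in 4 pairs, most in 53369 (1.04) and 53105 (0.86), and lower in 52205 (-0.21) and 52424 (-0.25). Epcam had a log2 change of -0.74 (SE 0.37, interval -1.57 to 0.10, limma adjusted p = 0.379) and Ehf of -0.96 (SE 0.39, adjusted p = 0.305), each lower in 4 of 6 pairs. For Epcam those pairs include 52419, with 5 reads in Cre and 11 in parental cells, and 53369, with 7 and 8, too few to show a direction. Ehf had a median of 3.68 CPM in Cre and 26.7 CPM in parental libraries. Pkp3 was at -0.49 (limma adjusted p = 0.445), Llgl2 at 0.20 (adjusted p = 0.443), Krt8 at 0.21 (adjusted p = 0.472), Cldn4 at -0.58 (adjusted p = 0.555), Elf3 at 0.04 (adjusted p = 0.926) and Dsg2 at -0.08 (adjusted p = 0.920). The sign of Elf3 turned with a pseudocount of 0.1 (-0.0097), and that of Dsg2 without 52205 (0.20) or 52424 (0.02). The Cre and parental levels overlapped for all of these genes.

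**Figure D2:**
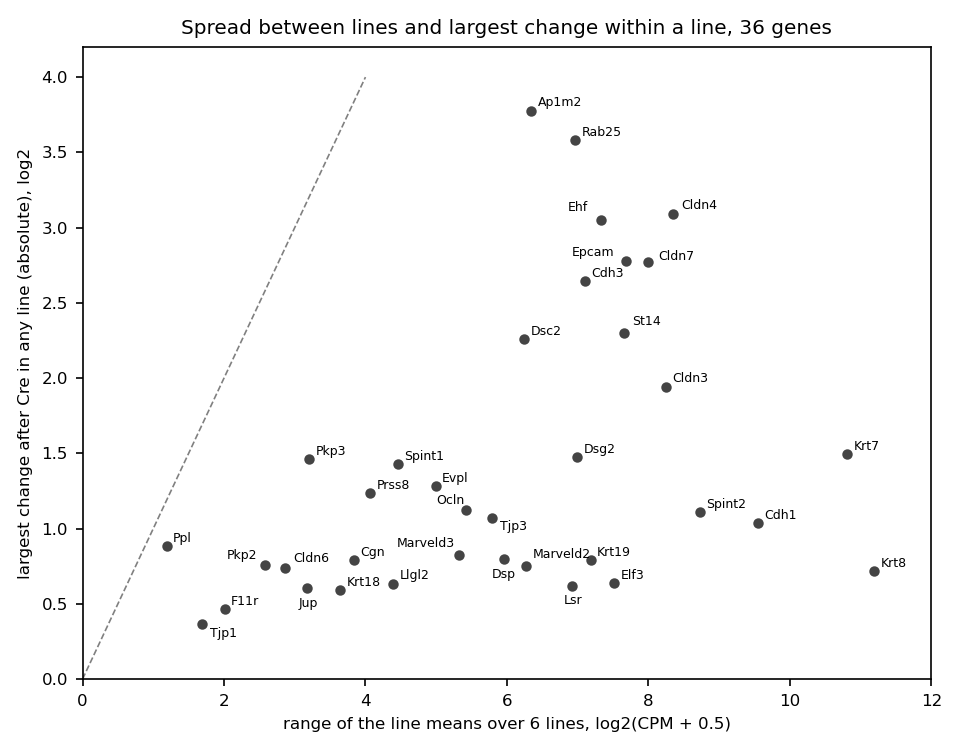
The span of the line means over the 6 lines (horizontal, log2 units) against the largest change after Cre in any 1 line (vertical, log2 units), 1 point per gene, with a dashed line where both are equal. All 36 points lie to the right of the line, and Ap1m2, Rab25, Cldn4, Ehf, Epcam and Cldn7 lie highest.

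Within single lines, most of the genes were lower in Cre in 52205 and 52424 and higher in Cre in 53105 and 53371. Each line has 1 library per condition, so the following compares libraries and has no test. In 52205, 23 of the 34 genes were lower, against 49.5% of all genes tested, and 13 were 2-fold or more lower, where 4.09% of all genes tested were that much lower in that line, and 1 was 2-fold or more higher (0.573% of genes tested). In 52424, 31 of the 34 were lower, against 49.7% of all genes tested, and 10 were 2-fold or more lower, where 3.81% of genes tested were, with 0 that much higher (2.45% of genes tested). In 53105, 25 of the 34 were higher, against 49.0% of all genes tested, 4 of them 2-fold or more (1.55% of genes tested), and 1 was 2-fold or more lower (0.903%). In 53371, 24 of the 34 were higher, against 47.1% of all genes tested, and 0 were 2-fold or more higher (4.36% of genes tested) or lower (2.98%). In 53369, 17 were higher and 17 lower (51.1% and 48.5% of all genes tested), with 3 genes 2-fold or more higher (0.699% of genes tested) and 0 that much lower (0.864%). In 52419, 18 were lower and 10 higher (47.3% and 51.6% of all genes tested), and the rest had no read in either library. There 1 gene, Spint2, was 2-fold or more lower (2.43% of genes tested), with 1 read in Cre and 10 in parental cells. Other counts in 52419 were also low, such as 7 and 11 reads of Krt8. The median log2 change of the 34 was -0.64 in 52205, -0.59 in 52424, -0.07 in 52419, 0.08 in 53369, 0.22 in 53105 and 0.36 in 53371, while the median of all genes tested was between -0.03 and 0.01 in each line.

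**Figure D3:**
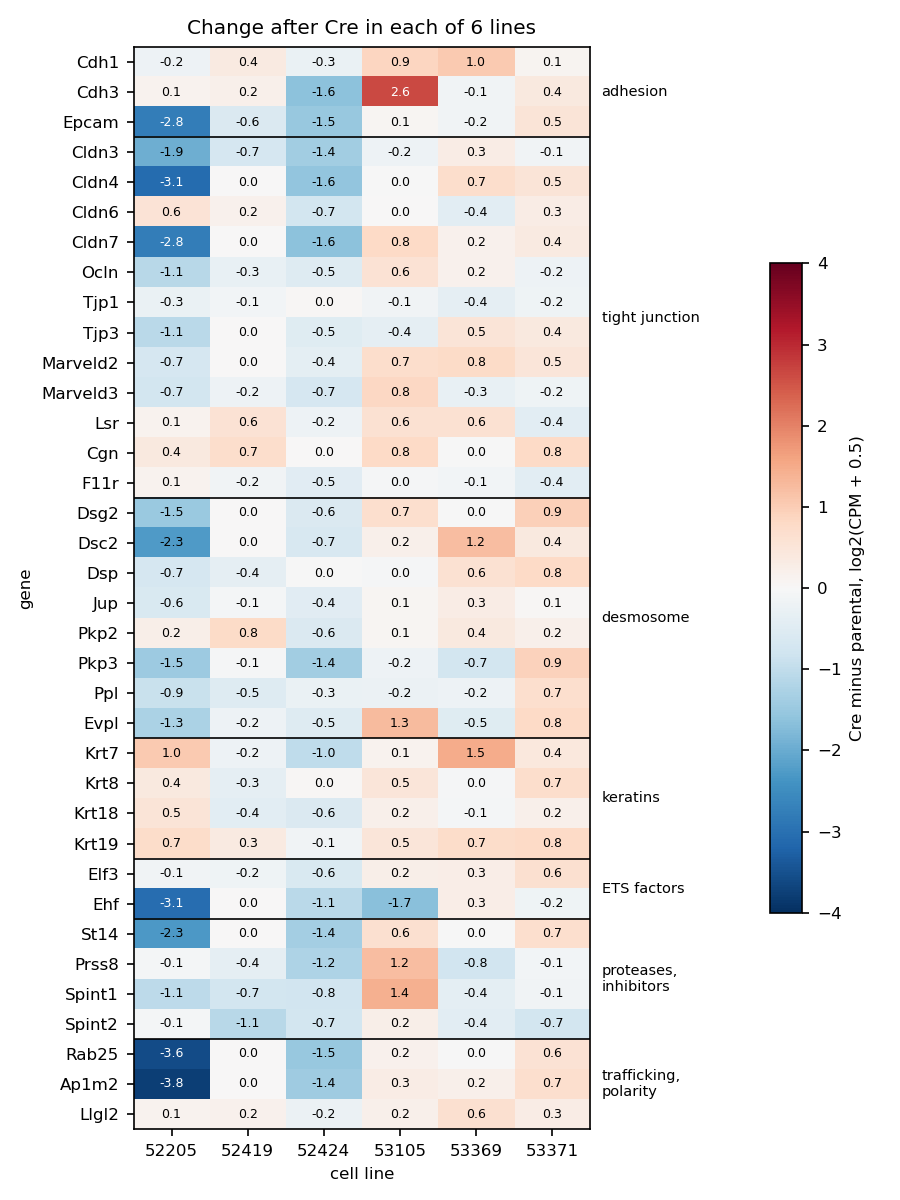
Change after Cre, as Cre minus parental on the log2(CPM + 0.5) scale, for the 36 genes (rows, by role) in each of the 6 lines (columns). Blue marks lower and red higher in Cre, and the columns of 52205 and 52424 hold most of the blue, down to -3.78 for Ap1m2 in 52205.

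In 52205 the genes that were 2-fold or more lower were Epcam, the tight junction genes Cldn3, Cldn4, Cldn7, Ocln and Tjp3, the desmosome genes Dsg2, Dsc2, Evpl and Pkp3, and Ehf, St14 and Spint1. Epcam was at 11.1 CPM in Cre and 79.3 CPM in parental cells, 7.14-fold lower (95% interval for counting error only, 5.92 to 8.67). Cldn4 was 8.79-fold lower (7.48 to 10.4), Cldn7 7.28-fold lower (5.72 to 9.39), Ehf 9.03-fold lower (6.85 to 12.1), St14 5.23-fold lower (4.06 to 6.81) and Cldn3 3.90-fold lower (3.45 to 4.41). Rab25 was at 0.627 CPM (7 reads) in Cre and 13.0 CPM (173 reads) in parental cells, and Ap1m2 at 0.0896 CPM (1 read) and 7.58 CPM (101 reads). Between the same libraries, Cre minus parental on the log2 scale, Cdh1 was at -0.21, Lsr at 0.15, Cgn at 0.39, Krt8 at 0.38, Krt18 at 0.51, Krt19 at 0.74 and Krt7 at 1.05.

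In 52424 several of the same genes were lower by smaller factors, from a higher level. Epcam was at 127 CPM in Cre and 366 CPM in parental cells, 2.88-fold lower (2.72 to 3.05), Cldn4 3.00-fold lower (2.84 to 3.16), Cldn7 3.15-fold lower (2.93 to 3.39), Cldn3 2.62-fold lower (2.47 to 2.78), St14 2.57-fold lower (2.37 to 2.79) and Ehf 2.15-fold lower (1.92 to 2.41). The genes 2-fold or more lower in both lines were Cldn3, Cldn4, Cldn7, Ehf, Epcam, Pkp3 and St14, which are 7 of the 13 of 52205 and 7 of the 10 of 52424, where 1.07% of all genes tested were 2-fold or more lower in both. Rab25 and Ap1m2, below the filter, were at 38.6 and 24.4 CPM in Cre 52424 and at 112 and 66.1 CPM in parental 52424. Cdh3, Krt7 and Prss8 were 2-fold or more lower in 52424 and not in 52205, where Krt7 was higher and Prss8 at -0.07. Leukocyte markers summed to 8.58 CPM in Cre and 26.5 CPM in parental 52424, with Cd68 at 5.67 and 23.1 CPM and Ptprc, their defining gene, at most 1.02 CPM, and their part in the values of this line was not tested.

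In 53371, where Epcam was at 69.2 CPM in parental cells against 79.3 CPM in parental 52205, most of the same genes were not lower. Cre minus parental on the log2 scale was 0.53 for Epcam, 0.51 for Cldn4, 0.35 for Cldn7, 0.67 for St14 and 0.94 for Dsg2, but -0.14 for Cldn3 and -0.18 for Ehf. In 53105 the 4 genes that were 2-fold or more higher were Cdh3, Evpl, Prss8 and Spint1. Cdh3 had 572 reads in Cre and 88 in parental cells, 6.78-fold higher (5.41 to 8.59), and Prss8 was at 1.48 CPM in Cre and 0.341 CPM in parental cells, while Ehf was 3.67-fold lower (2.59 to 5.31). In 53369 Cdh1, Dsc2 and Krt7 were 2-fold or more higher, from parental levels of 17.5, 0.229 and 1.38 CPM. Dsc2 had 17 reads in Cre and 3 in parental cells there. Whether a difference between lines in the change is repeatable cannot be told apart from the spread between libraries, since no line has a second pair.

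**Figure D4:**
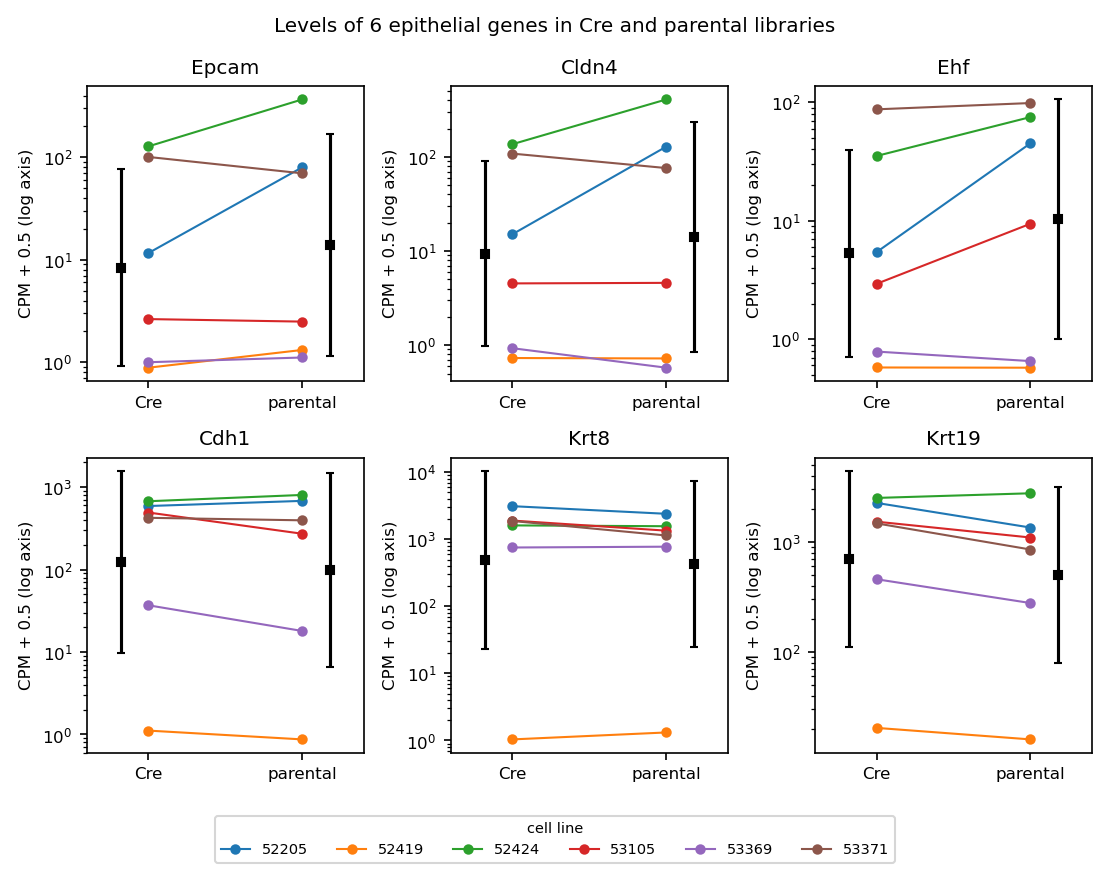
Levels of Epcam, Cldn4, Ehf, Cdh1, Krt8 and Krt19 as CPM + 0.5 on a log axis, Cre left and parental right, with 1 coloured line per cell line and black squares with bars for the geometric mean and 1 SD of the log values over 6 libraries. The 52205 points lie far lower in Cre for Epcam (11.1 against 79.3 CPM), Cldn4 and Ehf, and close together for Cdh1.

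Promoter sequences are shown for genes that were lower in both 52205 and 52424 (Epcam, Cldn4, Rab25), for the keratin partners that differed in 52419 (Krt8, Krt18) and for Cgn, which was at most 0.01 lower in any line. They are RefSeq promoters on GRCm38.p6, each 250 bases before to 50 after the annotated start, 5′ to 3′ on the gene's strand. They lie at chr17:87635729-87636028 (plus strand), chr5:134946885-134947184 (minus), chr3:88548230-88548529 (minus), chr15:102004293-102004592 (minus), chr15:102027966-102028265 (plus) and chr3:94786433-94786732 (minus). Capitals mark the E-box CAGGTG on either strand.
Epcam: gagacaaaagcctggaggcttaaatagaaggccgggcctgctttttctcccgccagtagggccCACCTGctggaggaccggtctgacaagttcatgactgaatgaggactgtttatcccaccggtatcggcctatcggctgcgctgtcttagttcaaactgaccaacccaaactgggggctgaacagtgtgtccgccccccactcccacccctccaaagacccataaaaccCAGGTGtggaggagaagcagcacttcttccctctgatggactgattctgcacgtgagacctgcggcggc
Cldn4: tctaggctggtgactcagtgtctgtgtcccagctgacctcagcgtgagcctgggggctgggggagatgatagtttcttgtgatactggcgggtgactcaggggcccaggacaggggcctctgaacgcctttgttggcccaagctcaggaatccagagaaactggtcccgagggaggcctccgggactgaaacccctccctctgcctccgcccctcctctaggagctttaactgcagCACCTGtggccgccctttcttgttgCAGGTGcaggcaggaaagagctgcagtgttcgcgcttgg
Rab25: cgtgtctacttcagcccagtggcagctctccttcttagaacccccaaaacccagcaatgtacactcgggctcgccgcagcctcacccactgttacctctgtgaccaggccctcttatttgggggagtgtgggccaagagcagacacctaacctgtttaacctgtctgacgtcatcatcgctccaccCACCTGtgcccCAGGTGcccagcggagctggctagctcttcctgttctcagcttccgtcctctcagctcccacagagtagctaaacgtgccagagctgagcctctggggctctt
Krt8: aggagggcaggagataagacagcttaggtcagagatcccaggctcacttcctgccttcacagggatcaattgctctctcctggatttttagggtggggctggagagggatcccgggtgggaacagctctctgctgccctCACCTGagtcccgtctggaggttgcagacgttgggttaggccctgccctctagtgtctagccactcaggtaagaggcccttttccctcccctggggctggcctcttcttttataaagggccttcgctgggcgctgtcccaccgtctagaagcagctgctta
Krt18: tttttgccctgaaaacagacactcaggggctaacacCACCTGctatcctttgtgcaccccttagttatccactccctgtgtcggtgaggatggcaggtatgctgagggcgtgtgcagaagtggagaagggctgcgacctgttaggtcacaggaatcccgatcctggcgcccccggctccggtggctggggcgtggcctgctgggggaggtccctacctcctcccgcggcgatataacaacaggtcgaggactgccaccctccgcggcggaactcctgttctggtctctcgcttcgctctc
Cgn: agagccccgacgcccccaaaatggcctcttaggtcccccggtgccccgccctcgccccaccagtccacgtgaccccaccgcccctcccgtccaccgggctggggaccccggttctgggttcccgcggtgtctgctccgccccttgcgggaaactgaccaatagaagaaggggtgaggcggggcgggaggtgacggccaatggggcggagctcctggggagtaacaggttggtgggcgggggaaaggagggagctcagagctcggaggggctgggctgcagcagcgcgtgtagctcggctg

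The E-box was common in these promoters. The window of Epcam holds it 187 and 19 bases before the start, that of Rab25 64 and 53 bases before, and that of Cldn4 14 bases before and at position 12 after it. The windows of Krt8 and Krt18 hold 1 each, 111 and 214 bases before the start, and that of Cgn holds none. RefSeq promoters were at hand for 22 of the 36 genes, and 18 of the 22 (81.8%) hold CAGGTG or its reverse complement, where 22.6% of 27025 genes with a promoter in the table and 20.6% of 9793 genes tested here do. Those without it were Cgn, Jup, Spint1 and Tjp1. The windows of Cgn and Tjp1, both on the minus strand, lie inside the annotated genes. They reach up to 94786732 and 65371494, where the genes reach 94787725 and 65527850, so the outermost starts of these genes were not scanned. Cdh1 had no promoter at hand. The genes shown were picked by their values and do not stand for all members. Spint1, without the motif, was at -1.05 in 52205 on the log2 scale, and Lsr, with 4 matches, at 0.15. Whether matches go with the changes was not tested. In windows of the same length the palindromic E-boxes CAGCTG and CACGTG were found in 2 and 3 of the 22 genes (9.09% and 13.6%, against 18.3% and 8.09% of all genes), the STAT motif TTCNNNGAA in 2 (9.09%, against 9.55%), the grainyhead motif AACNNGTT in 2 (9.09%, against 4.77%) and the ETS motif AGGAAG in 7 (31.8%, against 38.4%). Motifs were searched separately on both strands, so matches of different motifs may overlap. A match is a run of letters and not a shown site of binding. Among other lists, CAGGTG was in 8 of 10 genes of polarity complexes, 3 of 5 other desmosome and keratin genes, 3 of 7 epithelial regulators, 3 of 10 mesenchymal genes, 2 of 13 other tight junction genes and 1 of 8 catenin, nectin and partner genes with a promoter.

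Other genes of the same structures were read from lists chosen beside the 36. Of 13 tested claudins and other tight junction proteins outside the 36, 12 differed between lines and 0 passed for Cre (limma, adjusted p under 0.05). Cldn2, a pore-forming claudin, had the widest span (9.06 log2 units), and Magi3, a scaffold, the smallest p for Cre, at 103 ± 36.6 CPM in Cre and 76.4 ± 21.9 CPM in parental libraries (log2 change 0.40, SE 0.08, limma adjusted p = 0.140, higher in 6 of 6 pairs). Of 11 catenins, nectins and adherens junction partners, 11 differed between lines, led by Plekha7 (5.88 log2 units), and 0 passed for Cre, with Nectin3 at 0.32 (limma adjusted p = 0.208). Of 11 polarity genes, 8 differed between lines, led by Crb3 (6.44), and 0 passed for Cre. Prkci, an atypical protein kinase C of the Par complex, was at 172 ± 30.0 CPM in Cre and 137 ± 35.9 CPM in parental libraries (0.35, limma adjusted p = 0.149, higher in 6 of 6 pairs). Of 6 other desmosome and keratin genes, 5 differed between lines, led by Krt20 (8.76), and 0 passed for Cre, with Perp, a desmosomal tetraspan protein, at 0.23 (adjusted p = 0.390).

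Transcription and splicing regulators of epithelia and mesenchymal genes were read the same way. Of 10 tested epithelial regulators, 9 differed between lines and 0 passed for Cre, with Foxa2 at 0.18 (limma adjusted p = 0.438). Esrp1, an epithelial splicing factor, and Grhl2, a grainyhead transcription factor that activates epithelial junction genes, were looked up after the values of the 36 were seen. Esrp1 was at 1.17 CPM in Cre and 23.1 CPM in parental 52205 and at 33.7 and 109 CPM in 52424, and Grhl2 at 0.359 and 9.39 CPM in 52205 and at 25.2 and 53.6 CPM in 52424. Both were higher in Cre than in parental 53371, with Esrp1 at 18.5 against 9.53 CPM and Grhl2 at 12.3 against 5.67 CPM. Over the 10 tested regulators the median Cre minus parental was -0.48 in 52205, 0.19 in 52424 and 0.01 in 53371 on the log2 scale. Their estimates over all pairs were below 0 for 5 and above 0 for 5. Of 14 tested mesenchymal genes, 14 differed between lines and 0 passed for Cre, while 4 were lower and 1 higher at an unadjusted p under 0.05 by limma. Prrx1, a homeobox gene of mesenchyme, had both the widest span (7.39) and the smallest p for Cre (log2 change -0.44, SE 0.09, limma adjusted p = 0.140, lower in 6 of 6 pairs), at 322 CPM in Cre and 424 CPM in parental 53369 and at 1.45 and 1.98 CPM in 52424. The 2 lines in which most of the 36 genes were lower in Cre differed in the mesenchymal genes, whose median Cre minus parental was 0.33 in 52424 and -0.17 in 52205 on the log2 scale. Vim, the intermediate filament vimentin, was at 857 CPM in Cre and 492 CPM in parental 52424 and at 2266 CPM in Cre and 2548 CPM in parental 52205. Zeb1, a repressor of epithelial genes, was at 45.7 CPM in Cre and 24.3 CPM in parental 52424 and at 57.9 and 68.6 CPM in 52205. Cdh2 (N-cadherin) was at 0.48 in 52424 and -0.52 in 52205 on the log2 scale. Snai1, another repressor, was at -1.09 in 52424 and -0.18 in 52205, Fn1 (fibronectin) at -0.75 and -0.69, and Zeb2 at 0.00 and -0.96. These values compare 1 library with 1 and have no test, and the part of these genes in the levels of the 36 was not tested.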

How the data were processed

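Poly(A)-selected RNA of 12 cultures was sequenced, and the protocol in the labels names no strand-marking step. Per the submitters' processing notes, FastQC 0.11.9, featureCounts, edgeR and the builds GRCm38 and mm10 were used. No aligner is given in the sources used here. The authors deposited a signal per gene on a CPM scale. Dividing a library by the worth of 1 read gave whole reads (100% of values, tolerance 0.01), and the scaling equalled edgeR's trimmed mean of M values. The deposited log2 values cover 10903 genes, exactly those at 5 CPM or more in at least 6 libraries. 1 read was worth 0.0569 to 0.0896 CPM.

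Symbols came from RefSeq (GRCm38.p6) for 19448 of 20432 genes. The 36 members and all lists were chosen with earlier results of these data known. Genes at 1 CPM or more in at least 6 libraries (12734) were fitted as log2(CPM + 0.5) with limma 3.58.1 (limma-trend, R 4.3.3), with line as a block and Cre as a term, 2-sided. Folds of low genes come out too small on this scale. P-values were adjusted over all genes tested (Benjamini-Hochberg) and called under 0.05. The F test of the line terms gave differences between lines. Same-line libraries form isogenic pairs in the series design, and in all 6 lines the deviations from the group mean correlated best with those of the same line (r across genes 0.732 to 0.946). Each line has 1 library per condition, so the spread behind p-values is that of the Cre minus parental difference from line to line. It may be partly technical. Values in full were given for Cdh1, Epcam and, in each of 7 role lists, the member with the smallest p and the one with the widest span, and likewise for other lists, except for 1 gene that is not reported here. Other genes named were chosen after their values were seen. Lengths were unions of exons in GENCODE M21. Exons of 8 members overlap a gene on the other strand (Elf3, Cldn3, Lsr, Prss8, Tjp3, Dsp, Krt8 and Dsg2), whose reads cannot be told apart. Alternatives were other pseudocounts, filters, scalings, limma settings, the log2 table, no block, each pair left out, and edgeR 4.0.16 and DESeq2 1.42.0 on recovered reads. Fits were tested on simulated data. Intervals of folds within a line are exact binomial and cover counting error only.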

Additional observations from a re-analysis of the deposited data

Results flagged for a closer look

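In 4 of 36 sets of 6 values (levels in each group and changes, for 12 genes), 1 library stood apart from the other 5 by Dixon's criterion at the 95% level. The criterion flags by chance about 1 in 20 sets of normally distributed values. Levels were taken in CPM, which differ widely between lines, and the sets are not independent, so that rate need not hold here. All 4 concern parental 52424 as the highest of the parental libraries. Epcam was at 366 CPM there, against 0.612 to 79.3 CPM in the other parental libraries. Cldn4 was at 408 CPM, against 0.0765 to 128 CPM, Pkp3 at 51.2 CPM, against 3.24 to 13.2 CPM, and Elf3 at 137 CPM, against 0.149 to 51.1 CPM. No Cre library and no change of these 12 genes was set apart by the same criterion.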

How the results depend on the processing

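All members tested differed between lines under every alternative that kept 6 lines and fitted line terms, including edgeR, DESeq2, 3 other pseudocounts and other scalings. With no filter 36 of 36 did, and 33 of 33 with the stricter filter and in the log2 table. With a pair left out 32 to 34 did. Pkp2 and Ppl were lost without 52419 (adjusted p up to 0.0741 by limma), Ppl without 53369 (0.0511) and Pkp3 without 52424 (0.124). The share of all genes called between lines was 51.0% to 73.7% with a pair left out. For Cre against parental, no alternative but DESeq2 called a member, and DESeq2 called 1 (Krt19, log2 change 0.49). Adjusted p-values of Krt19 ran from 0.0703 to 0.374 over the other alternatives, and to 0.99998 with no block. Over all genes the number called was 0 with no filter, 0 with no replicate block, 5 with edgeR, 34 with library weights, 270 with DESeq2 and 0 to 5 with a pair left out. The block, which follows the isogenic pairs, changed no call of a member. The number of members with an estimate below 0 was 18 to 24 with a pair left out, and their median change -0.20 to -0.02. Elf3 turned to -0.0097 with a pseudocount of 0.1 and to -0.0040 in the log2 table, and ran from -0.079 to 0.17 with a pair left out. Dsg2 ran from -0.28 to 0.20. The cause was not tested. Reads limit the members of 52419, where 8 of 36 had no read in Cre and 8 in parental cells.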

Other observations

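A few epithelial genes outside the 36, chosen after their values were seen, did not follow the order of lines seen for Epcam and Cldn4. Cldn18, a claudin of stomach and lung, was highest in 53105, at 700.1 CPM in Cre and 780.0 CPM in parental cells, where Epcam was at 2.14 and 1.99 CPM. It was at 189 CPM in Cre and 223 CPM in parental 53371 and at most 2.23 CPM in 52419 and 53369. Krt20, an intestinal and gastric surface keratin, was at 417 CPM in Cre and 367 CPM in parental 52205, at 199 and 139 CPM in 53105, and at 47.5 and 22.8 CPM in 53371. In 52419 it was at 0.845 CPM in Cre and 11.2 CPM in parental cells. Krt23 was at 77.9 CPM in Cre and 71.3 CPM in parental 53105 and at most 0.0765 CPM in 52419 and 53369.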
